A study of Homo sapiens with 12 samples.

Results

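The genes described here are those of the ATP-binding cassette (ABC) family, taken as every row of the deposited normalized table whose symbol is ABC, a subfamily letter from A to G and a number. The rule gave 39 rows with 38 symbols out of 26231 rows in that table, ABCC1 being listed under 2 gene IDs. The RNA was from the line 697 (EU3), human leukaemia cells of B-cell precursor type, sorted for high aldehyde dehydrogenase activity (ALDH+). SH2 cells carry a doxycycline-inducible shRNA against IGF2BP1, an RNA-binding protein, together with a green fluorescent reporter, and were measured untreated and after doxycycline with sorting for the reporter (n = 4 libraries each, sets 1 to 4). The remaining cells are labelled as the control for doxycycline and were measured untreated and treated (n = 2 each, sets 2 and 4). Whether these cells hold the scrambled hairpin named in the protocol is not stated, and treated and untreated SH2 cells also differ in the reporter sort. Each set came from its own ALDH+ sort and its own doxycycline treatment.

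ABC proteins bind and hydrolyse ATP through a pair of conserved cassettes. Most members, those of subfamilies A, B, C, D and G, couple this to moving lipids, sterols, peptides, metabolites or drugs across a membrane. ABCB1, ABCC1 and ABCG2 are best known for exporting anticancer drugs, and ABCG2 also marks the dye-effluxing side population of stem-like cells. Subfamilies E and F have no membrane domain and act on the ribosome.

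Promoter windows are shown for ABCE1 and ABCC5, the 2 members that passed the test in a comparison below. They are RefSeq windows on GRCh38.p14, 250 bases before to 50 bases after a transcription start, written 5′ to 3′ on the gene's strand. The ABCE1 window is chr4:145098061-145098360 on the plus strand and the ABCC5 window is chr3:184017835-184018134 on the minus strand. Capitals mark TGACGTCA, the cAMP response element, in ABCE1, and in ABCC5 the GC box GGGCGG (here as its reverse complement) and the TATA box TATAAA.
ABCE1: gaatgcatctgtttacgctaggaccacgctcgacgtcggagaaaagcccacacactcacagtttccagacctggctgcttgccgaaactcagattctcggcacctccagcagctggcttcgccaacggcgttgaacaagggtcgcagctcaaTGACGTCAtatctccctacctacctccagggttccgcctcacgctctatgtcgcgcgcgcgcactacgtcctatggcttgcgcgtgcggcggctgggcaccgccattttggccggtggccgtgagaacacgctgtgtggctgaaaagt
ABCC5: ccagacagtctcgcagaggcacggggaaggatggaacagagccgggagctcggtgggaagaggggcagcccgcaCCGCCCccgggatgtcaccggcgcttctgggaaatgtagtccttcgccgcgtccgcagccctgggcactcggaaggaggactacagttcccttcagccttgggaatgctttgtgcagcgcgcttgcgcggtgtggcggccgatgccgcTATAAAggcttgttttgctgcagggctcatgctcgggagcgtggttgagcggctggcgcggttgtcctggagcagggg
In ABCE1 the match begins 98 bases before the RefSeq start, and in ABCC5 the TATA box begins 28 bases before it. The GENCODE spans of both genes begin upstream of these RefSeq starts, at 145097932 for ABCE1 and at 184018015 for ABCC5. These distances therefore hold for the RefSeq starts shown. RefSeq windows were matched for 28 of the 38 symbols, 42 windows in all, since some genes have several starts. Both strands were searched for 5 motifs. GGGCGG was in 59.5% of member windows and in 45.0% of all 35116 windows. TATAAA was in 16.7% against 11.5%, the E-box CACGTG in 19.0% against 7.26%, and CCAAT in 23.8% against 34.6%. TGACGTCA, chosen after the ABCE1 window was read, was in 2.38% against 1.85%. These are counts of letters and do not show that a factor binds.

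Libraries held 2210291 to 3370952 reads in genes, of which 551 to 1178 were in ABC genes (0.0249% to 0.0376%). At this depth 3 reads correspond to 0.890 to 1.36 CPM (a gene's reads scaled to a common library size). The intervals of read ratios given below cover counting error only. IGF2BP1, the targeted gene, was at 21.7, 30.5, 39.2 and 32.9 CPM in untreated SH2 sets 1 to 4 and at 6.28, 14.8, 25.0 and 16.2 CPM in treated ones, but at 0 to 1.42 CPM in all 4 libraries labelled control. The libraries labelled control thus had less of the targeted transcript than the knockdown libraries. They also had the immunoglobulin light chain IGKC at 847 to 1505 CPM against 0 to 1.81 CPM in SH2, and IGLC7 at 0 against 157 to 505 CPM in SH2. All 15 B-cell precursor markers had reads in every group. The 10 T-cell markers summed to 1739 to 1933 CPM in set 2 labelled control, 86.7 to 182 CPM in set 4 labelled control and 40.2 to 120 CPM in SH2. Of these markers, CD3E was at 0 to 0.42 CPM in SH2, CD3D at 2.87 to 18.7 CPM and CD3G at 20.9 to 85.2 CPM. CD3G was at 18.8 CPM untreated and 3.06 CPM treated in set 4 labelled control. The part of T-cell markers in any difference between SH2 cells and cells labelled control was not tested. In bulk RNA, fewer cells of a type and less RNA per cell cannot be told apart.

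Of the 39 rows, 18 passed the filter on low counts and were tested among 11968 genes. These 18 held 95.8% of the members' summed CPM. Because reads are taken at the transcript's end, CPM are not divided by length. ABCE1, which splits ribosomes after termination, had the highest mean at 43.0 CPM over 12 libraries. ABCF2, a cytosolic ABCF protein, had 41.4 CPM. ABCC5, an exporter of cyclic nucleotides and other organic anions, had 27.4 CPM and ABCF3 20.8 CPM. ABCE1 and ABCF2 cannot be ordered beyond their spread, with ranges over libraries of 23.3 to 67.7 and 23.2 to 59.8 CPM.

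**Figure D1:**
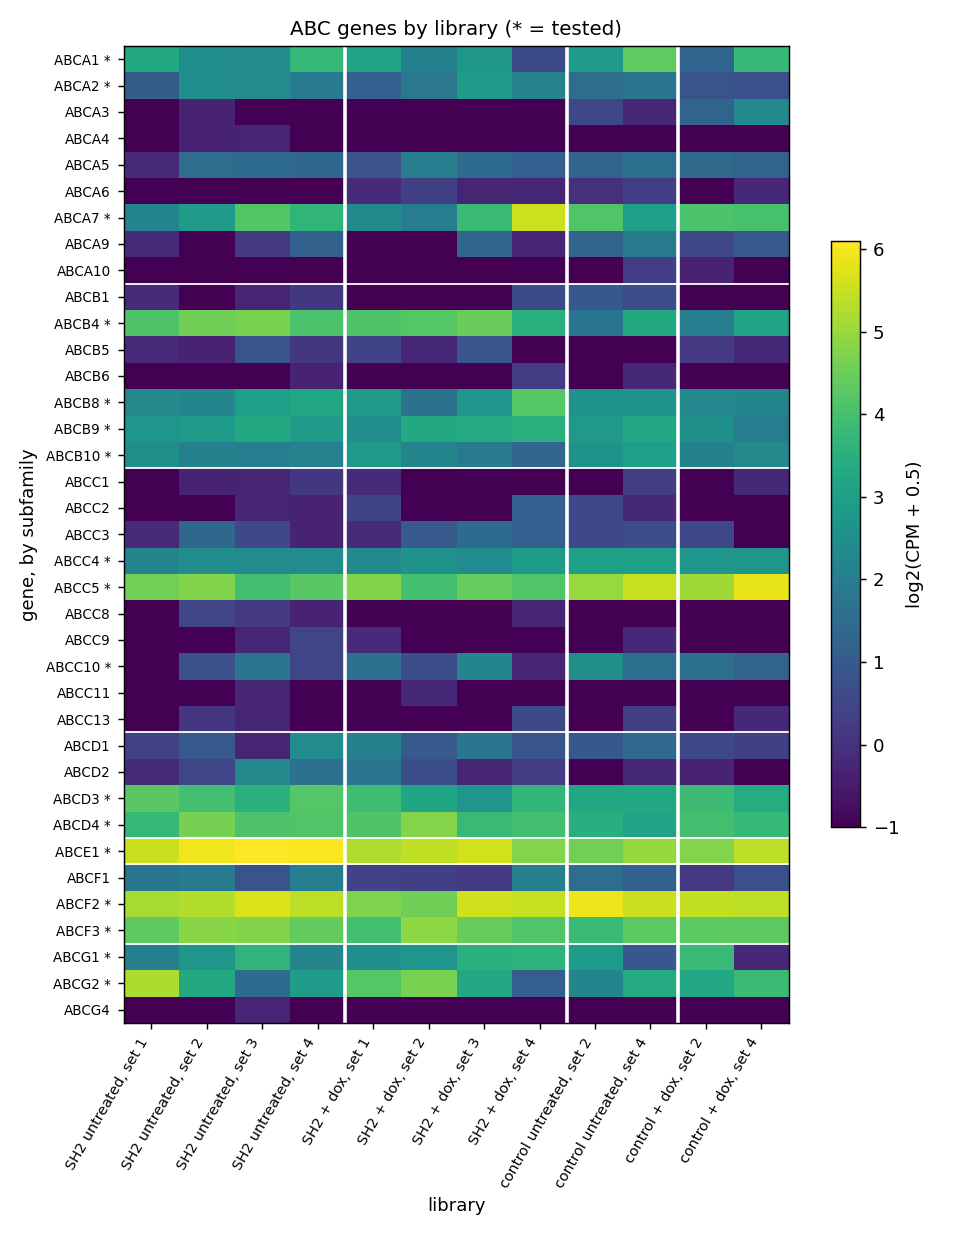
Level of the ABC genes reported here that had a read (rows, by subfamily, asterisk where tested) in each of the 12 libraries (columns), coloured by log2(CPM + 0.5). ABCE1 and ABCF2 are bright in all libraries, while ABCB1 and ABCC1 are near the lowest colour throughout.

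The classical drug exporters were low or uneven. ABCB1 had 13 reads in all 12 libraries, 7 in SH2 and 6 in cells labelled control. The 6 were all in untreated libraries and 0 in treated ones. With the 0 set to a floor of 3 reads over the group, the untreated level was 2.35-fold higher. That value makes no allowance for counting error in the 6 reads. In SH2 cells its 4 untreated and 3 treated reads gave a treated-to-untreated ratio of 0.83 (95% exact interval 0.12 to 4.91). ABCC1 had 8 reads under its first ID and 0 under its second. Between 42.2% and 63.8% of alignments per library were not unique and were set aside in counting. A level near 0 here does not show that ABCC1 is silent, and the part of the second ID was not tested. The same limit holds for ABCF1, a ribosome-associated member with 66 reads, and for TAP1, TAP2 and CFTR, ABC proteins with other symbols, which are listed at 0 in all 12 count tables.

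ABCG2 was the one of these 3 exporters that passed the filter on low counts. Its level was 36.5, 9.49, 2.27 and 6.94 CPM in untreated SH2 sets 1 to 4, and 18.01, 25.06, 9.22 and 1.68 CPM in treated ones. Cells labelled control had 4.27 and 9.76 CPM untreated and 8.97 and 13.8 CPM treated, in sets 2 and 4. All groups overlapped, and ABCG2 was lower with doxycycline in SH2 sets 1 and 4 and higher in sets 2 and 3. Treated against untreated SH2 cells gave a log2 fold change of -0.02 ± 0.76 (SE; 95% interval -1.50 to 1.47; edgeR adjusted p = 1). That interval spans a change of over 1 log2 unit either way. Leaving out untreated SH2 set 1 turned the value to 1.10.

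With doxycycline, no ABC gene passed the test in SH2 cells. Of 18 tested, 0 passed an adjusted p of 0.05 by edgeR's quasi-likelihood test, and 1 had an unadjusted p under 0.05, as did 584 of all 11968 genes. Of all genes tested 0.0167% passed (2 genes, or 6 with the set as a block). DESeq2's Wald test and limma also called 0 members. The members' median log2 fold change was -0.03, against 0.03 for all genes, and their range was -0.75 to 0.73.

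ABCE1 had the smallest p. Its level was 45.5, 60.8, 67.7 and 64.9 CPM in untreated SH2 sets 1 to 4 and 37.3, 41.8, 48.1 and 26.9 CPM in treated ones. The treated library was lower in each of the 4 sets, although the groups as wholes overlapped, with 48.1 CPM in treated set 3 above 45.5 CPM in untreated set 1. The log2 fold change was -0.63 ± 0.25 (edgeR adjusted p = 0.983, or 0.463 with the set as a block). ABCE1 was the member with an unadjusted p under 0.05. ABCD3, a peroxisomal transporter of branched-chain and bile acid precursors, was at 18.9, 15.1, 11.0 and 18.1 CPM untreated and 14.7, 8.73, 5.93 and 12.1 CPM treated. It too was lower in 4 of 4 sets, with a log2 fold change of -0.61 ± 0.33 (edgeR adjusted p = 0.983, or 0.519 with the block). ABCB4, the phosphatidylcholine floppase, was the third member lower in every set, by only 17.21 to 17.18 CPM in set 1. Of all genes tested, 10.1% were lower in 4 of 4 sets. ABCC4, an exporter of cyclic nucleotides and prostaglandins, was the one member higher in 4 of 4 sets, by 0.02 to 0.44 log2 units, against 10.6% of all genes. ABCA1, which loads cholesterol onto apolipoprotein A-I, had a log2 fold change of -0.75 ± 0.65. Treated SH2 set 4 had 1.01 CPM, while the other 3 treated libraries had 3.80 to 7.96 CPM. The value was -0.41 without treated set 4, -0.43 without untreated set 4 and -1.10 without treated set 1.

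**Figure D2:**
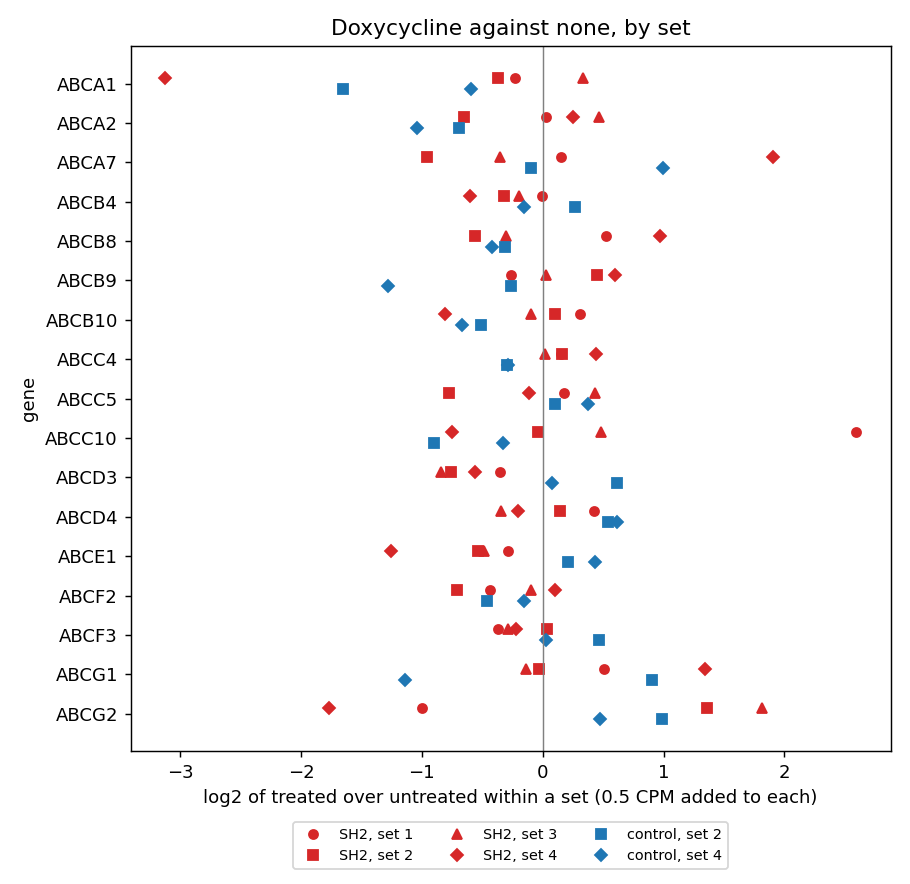
Log2 ratio of treated over untreated CPM within each set (x axis, 0.5 CPM added) for the tested genes reported here (y axis), SH2 in red and cells labelled control in blue. ABCE1 and ABCD3 lie left of 0 in all 4 SH2 sets and right of 0 in both control sets, while ABCG2 scatters on both sides in SH2.

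Several other tested members had libraries that were high or low. A Dixon check for outliers (gap to the next library over the range, critical value 0.829) flagged 0 of 34 SH2 groups of 4 libraries. With 4 libraries it flags only a very wide gap, so the lack of flags does not show that no library deviates. ABCA7, a phospholipid transporter, was at 4.10, 7.12, 17.8 and 12.1 CPM in untreated SH2 sets 1 to 4 and at 4.61, 3.42, 13.8 and 46.5 CPM in treated ones. Treated set 4 was the highest of all 12 libraries, and the log2 fold change of 0.73 ± 0.69 did not pass (edgeR adjusted p = 0.986). ABCB8, a transporter of the inner mitochondrial membrane, was also highest in treated SH2 set 4, at 18.2 CPM, against 2.66 to 9.05 CPM in the other 11 libraries. ABCG1, a sterol exporter to high-density lipoprotein, split by set in cells labelled control, at 7.12 and 13.8 CPM untreated and treated in set 2 and at 1.45 and 0.38 CPM in set 4. Set 2 is the one high in T-cell markers, whose part in this split was not tested. ABCC10, a broad drug exporter, had 0 reads in untreated SH2 set 1 and up to 5.22 CPM elsewhere.

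ABCF2 and ABCF3 were abundant in every library. ABCF2 was at 35.2, 38.3, 50.9 and 41.0 CPM untreated and 26.0, 23.2, 47.4 and 44.1 CPM treated in SH2, and between 41.3 and 59.8 CPM in cells labelled control. It has 2 named pseudogenes and shares exon sequence with 1 overlapping gene, so its reads may be split. ABCF3 lay between 13.8 and 28.9 CPM in all 12 libraries. The log2 fold changes with doxycycline in SH2 were -0.23 ± 0.27 and -0.19 ± 0.27 for ABCF2 and ABCF3, neither past the threshold.

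Cells labelled control were also measured with doxycycline. They differed from SH2 cells in IGF2BP1, IGKC and IGLC7 as given above, so more than the hairpin differs between the 2. There, 0 of 18 members passed (edgeR; 0 at unadjusted p under 0.05; DESeq2 and limma 0), as did 0% of all genes (82 at unadjusted p under 0.05; DESeq2 0). The members' median was 0.07 against 0.01 for all genes. ABCB9, a lysosomal peptide transporter, had the smallest p, with 6.64 and 9.04 CPM untreated and 5.45 and 3.44 CPM treated in sets 2 and 4 (log2 fold change -0.81 ± 0.52, or -0.52 without treated set 4). ABCD4, which takes part in lysosomal vitamin B12 export, followed at 0.60 ± 0.45, and ABCA2, an endolysosomal lipid transporter, at -1.09 ± 0.85. All 3 had an adjusted p of 1.

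The test of the difference between these doxycycline effects, SH2 minus control, called 0 of 18 members and 0% of all genes (edgeR). At unadjusted p under 0.05 there were 1 member and 116 genes, and DESeq2 called 0 members and 2 genes. With the set as a block 1 gene of all tested passed. ABCE1 went from 23.3 to 26.9 CPM in set 2 and from 30.7 to 41.6 CPM in set 4 in cells labelled control, where SH2 cells had less after treatment. The difference was -0.97 ± 0.44 log2 units (edgeR adjusted p = 1), and it was -0.64 without treated control set 4 and -1.26 without treated control set 2. ABCB9 differed by 1.06 ± 0.62 and ABCD3 by -0.99 ± 0.58, neither past the threshold. Shared untreated libraries enter more than 1 of these contrasts, so they are not independent.

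Without doxycycline, ABCE1 (chr4:145097932-145129179, plus strand, protein-coding) was higher in SH2 cells than in cells labelled control. Its mean was 59.7 ± 9.90 CPM (SD, n = 4) against 27.0 ± 5.29 CPM (SD, n = 2), and the lowest SH2 library, 45.5 CPM, lay above the higher control one, 30.7 CPM. The log2 fold change was 1.14 ± 0.33 (2.21-fold, edgeR adjusted p = 0.0479), and ABCE1 was the 1 member of 18 called. Of all genes tested 7.84% were called (938, or 1505 with the set as a block). The call was lost without untreated SH2 set 2, 3 or 4 (adjusted p = 0.104, 0.112 and 0.0911) and without control set 2 or 4 (0.394 and 0.141), and with no filter on low counts (0.0616). Without control set 2, the library high in T-cell markers, the log2 fold change was 0.96. Exons of ANAPC10 and OTUD4 overlap those of ABCE1 on the other strand, and whether counting used strand is not given.

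ABCB4 did not pass in the same comparison. It was at 17.2, 22.8, 24.9 and 16.6 CPM in untreated SH2 sets 1 to 4 and at 2.85 and 9.40 CPM in control sets 2 and 4, with no overlap. Its log2 fold change was 1.70 ± 0.51 (adjusted p = 0.0599), and it passed by DESeq2 (0.0197), by limma (0.0242), with no filter (0.0251) and without control set 4 (2.83, adjusted p = 0.0429). Without control set 2 it was 1.12 (adjusted p = 0.472). ABCB4 lies at chr7:87401697-87480435 on the minus strand, beside ABCB1 at chr7:87503633-87713323, which had 4 reads in untreated SH2 and 6 in untreated control libraries. ABCC5 had a log2 fold change of -0.83 ± 0.34 (adjusted p = 0.171). Groups did not overlap for 8 of 18 members (44.4%), against 32.9% of all genes. ABCB4, ABCD3, ABCD4, ABCE1 and ABCF3 were above in SH2, and ABCB10, ABCC4 and ABCC5 below. The members' median was 0.32 against 0.03 for all genes.

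With doxycycline in both, ABCC5 (chr3:183919934-184018015, minus strand, protein-coding, no overlapping exon) was lower in SH2 cells. It was at 26.4, 15.2, 20.8 and 17.5 CPM in treated SH2 sets 1 to 4 and at 33.6 and 56.5 CPM in treated control sets 2 and 4, with no overlap. The log2 fold change was -1.17 ± 0.33 (2.26-fold lower, edgeR adjusted p = 0.0360), the 1 call among 18 members, against 11.1% of all genes (1326, or 2171 with the block). The call was lost with the compared groups alone (adjusted p = 0.10), without treated SH2 set 2, 3 or 4 (0.0914, 0.0670 and 0.0515) and without control set 4 (0.388, log2 fold change -0.76). Without control set 2, high in T-cell markers, it held (-1.51, adjusted p = 0.0413). Untreated SH2 cells had 23.4, 26.4, 15.2 and 19.0 CPM and untreated control cells 31.3 and 43.4 CPM, and the doxycycline effects on ABCC5 differed by -0.34 ± 0.49 (edgeR adjusted p = 1).

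ABCE1 was at 38.5 ± 8.90 CPM (SD, n = 4) in treated SH2 and 34.3 ± 10.4 CPM (SD, n = 2) in treated control cells, overlapping (0.17 ± 0.31, adjusted p = 0.787). ABCB4 was at 17.2, 18.2, 21.7 and 10.8 CPM against 3.53 and 8.40 CPM, again without overlap (1.52 ± 0.51, adjusted p = 0.0736), passing by DESeq2 (0.0343) and without treated SH2 set 4 (0.0400). It was 1.01 without control set 2 (adjusted p = 0.416) and 2.25 without control set 4 (0.0899). ABCA2 had a log2 fold change of 1.67 ± 0.75 (adjusted p = 0.182), at 1.68 to 6.92 CPM in SH2 against 1.146 and 1.282 CPM. Groups did not overlap for 3 of 18 members (16.7%), ABCA2, ABCB4 and ABCC5, against 31.9% of all genes. The members' median was 0.14 against 0.04.

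**Figure D3:**
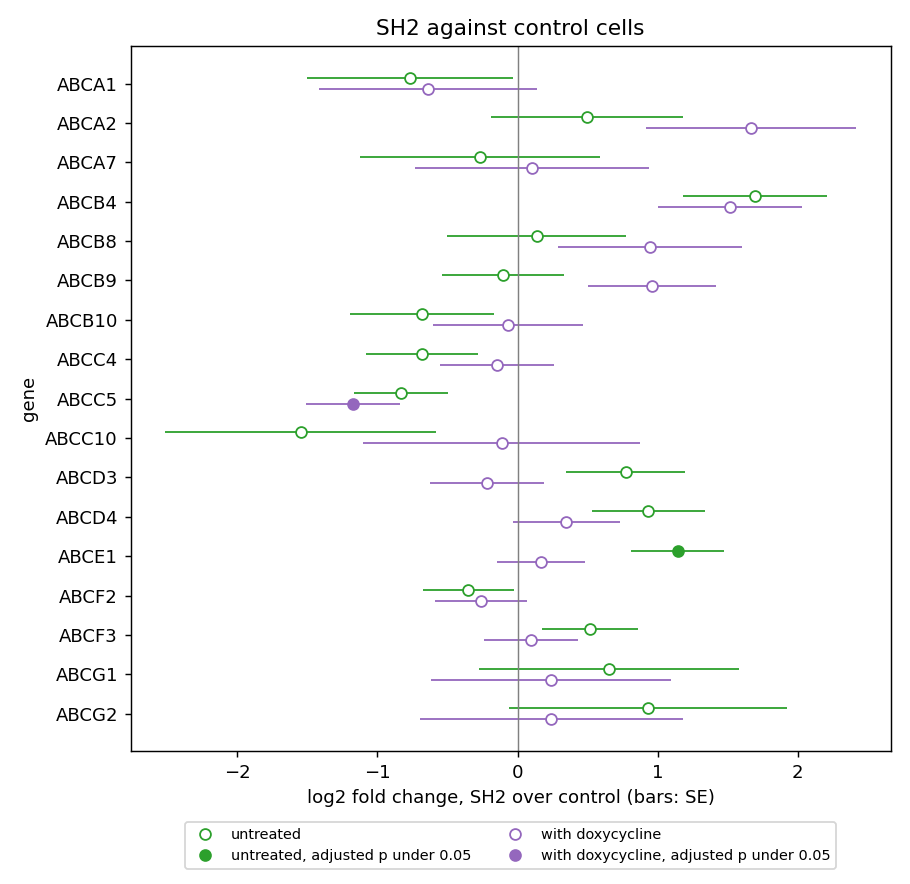
Log2 fold change of SH2 over cells labelled control (x axis, bars SE) for the tested genes reported here (y axis), untreated in green and with doxycycline in purple, filled where edgeR's adjusted p was under 0.05. ABCE1 untreated (1.14) and ABCC5 treated (-1.17) are the filled points, and ABCB4 is to the right in both states.

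**Figure D4:**
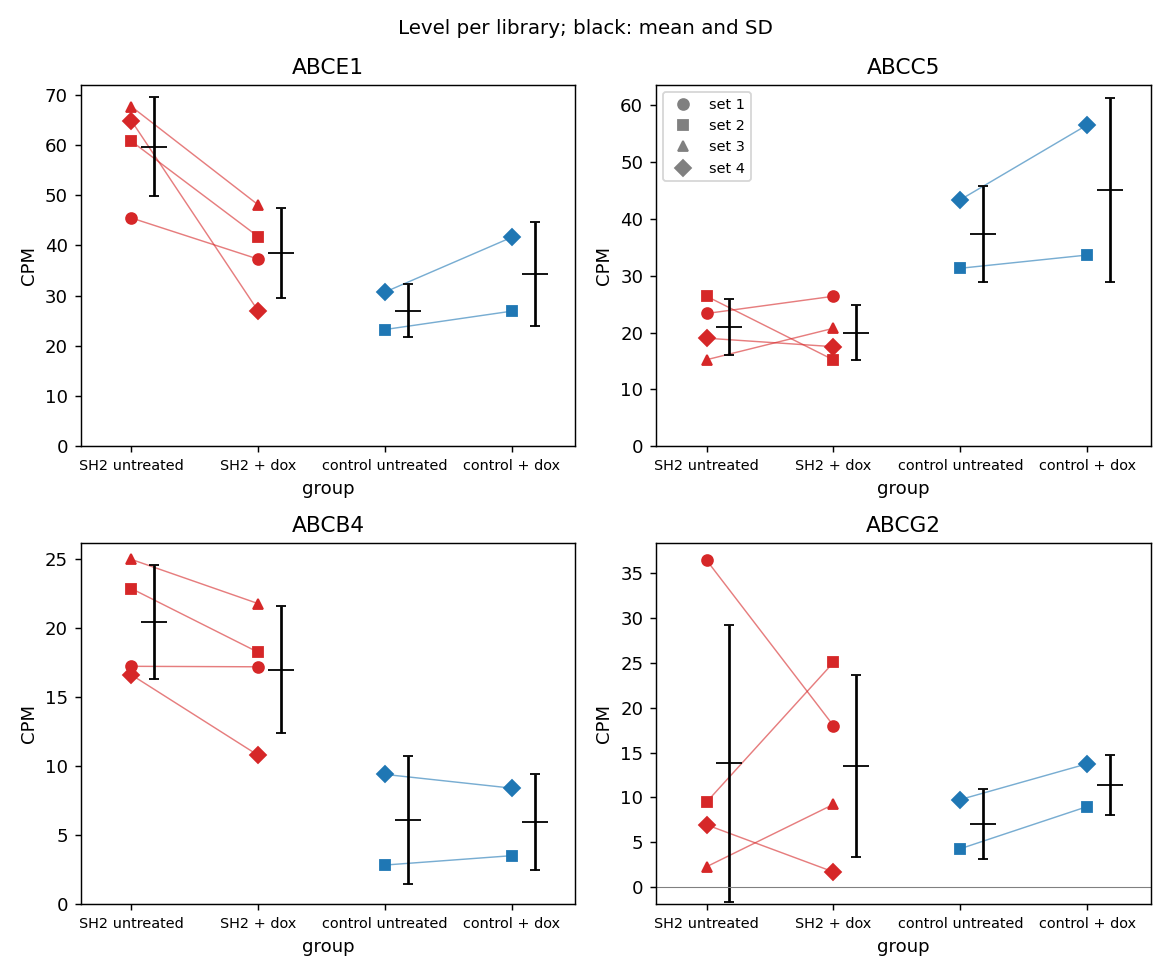
CPM of ABCE1, ABCC5, ABCB4 and ABCG2 in each library (y axis) by group (x axis), with lines joining treated and untreated libraries of a set and black bars for mean ± SD. ABCE1 is lower in the treated library of each SH2 set, ABCB4 is higher in every SH2 library than in any library labelled control, and ABCG2 spreads from 1.68 to 36.5 CPM in SH2.

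The filter left out 21 rows, of which those other than ABCA3, ABCD2 and ABCA9 had mean levels of 0 to 2.03 CPM. The 21 rows included genes with uneven reads between cell types. ABCA3, a lamellar-body lipid transporter, had 1 read in 8 SH2 libraries and 21 in 4 libraries labelled control, a ratio of 46.0 (95% exact interval 7.40 to 1902). In treated cells the reads were 0 and 18. With the 0 set to a floor of 3 reads, the level was 11.5-fold higher in cells labelled control, without allowance for counting error. Of the 18 reads, 12 were in treated control set 4. With no filter on low counts edgeR called ABCA3 in that comparison. Within cells labelled control ABCA3 had 18 reads treated and 3 untreated, a ratio of 5.10 (1.49 to 27.0). ABCD2, a peroxisomal fatty acid transporter, went the other way with 40 SH2 reads and 2 in cells labelled control, a ratio of 9.13 (2.37 to 78.0). ABCA9 had 16 SH2 reads and 20 in cells labelled control (CPM 2.74-fold higher in the latter, 1.35 to 5.65). These intervals cover reads, not the spread between libraries, and these 3 genes were singled out after their values were seen.

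Lists of genes that work with ABC proteins were described in the same fits. Of 95 tested rows in 8 lists, edgeR called 0 in each of the 3 contrasts of doxycycline, as did DESeq2. At unadjusted p under 0.05 there were 5 rows in SH2 cells, 2 in cells labelled control and 0 for the difference. Between cell types, the counts of calls below stand beside 7.84% of all genes called untreated and 11.1% treated, and 1 call in a list of about 10 genes is near those shares. GSTP1, which conjugates glutathione for export by ABCC proteins, was higher in SH2 at 2.28 ± 0.46 untreated and 2.63 ± 0.47 treated. MGST1 and MGST2, microsomal glutathione transferases, had 0 reads in the libraries labelled control. With the 0 set to a floor of 3 reads over the group, they were 48.2-fold and 80.1-fold higher in untreated SH2. The 12 tested genes of that list had 3 called higher and 0 lower in each state, but medians of 0.08 and -0.27. The medians were unmoved with MGST1 and MGST2 at the values from that floor. SLC29A1, the nucleoside carrier that takes up cytarabine, was lower in SH2 at -2.79 ± 0.29 untreated and -2.63 ± 0.29 treated, the 1 gene called of 10 drug carriers in each state. Among 12 ribosome recycling genes, PELO, the rescue factor that acts with ABCE1, was higher in treated SH2 cells than in treated cells labelled control, at 1.66 ± 0.42. Of 13 peroxisome genes, PEX5, the import receptor, was lower at -2.68 ± 0.47 and -2.23 ± 0.46, and ACSL1 at -1.46 ± 0.42 untreated.

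Among 12 sterol and lipid regulators, MYLIP, a sterol-induced ligase, was lower in SH2 at -1.37 ± 0.30 and -1.28 ± 0.30, and RXRA, a partner of the sterol receptors, was higher at 1.87 ± 0.40 treated. Of 8 xenobiotic regulators, ARNT was higher at 1.28 ± 0.32 treated. Of 17 heme and iron-sulfur genes, FDXR was lower at -1.57 ± 0.41 untreated, and in treated cells CPOX was higher at 1.90 ± 0.45 and SLC25A38 lower at -0.98 ± 0.28. Medians of all lists lay between -0.55 and 0.28. In the peptide loading list, 2 rows were called lower untreated, and 2 higher and 1 lower treated. ERAP2, a peptide-trimming protease, was the treated call outside the HLA genes, at 1.60 ± 0.40, and HLA rows are uncertain because one symbol has several IDs.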

How the data were processed

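RNA of ALDH+ 697 (EU3) cells was measured in 12 QuantSeq 3′-end libraries, per the labels. The authors deposited whole-read counts per gene for 64253 IDs and a table of normalized signal for 26231 genes. FastQC, STAR, HTSeq, DESeq2 and hg38 (GRCh38) are named in the submitters' processing notes, without versions. The annotation and the strand setting of the counting were not given in those sources. The deposited signal divided by 1 constant per library gave whole reads for 100% of values (tolerance 0.01), equal to the counts, so the count test on recovered reads made the same calls (2 genes in treated against untreated SH2). The 5 HTSeq summary lines were kept out of library sizes: not unique 42.2% to 63.8%, no feature 3.25% to 7.73%, ambiguous 1.11% to 1.62%. Every column of the table belonged to a library used here.

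Counts were fitted in R 4.3.3 with edgeR 4.0.16 (filterByExpr by group, minimum count 10, TMM, robust quasi-likelihood, 1 term per group, all 12 libraries), with Benjamini-Hochberg adjustment over 11968 genes and a threshold of 0.05. CPM are scaled by TMM. Alternatives were DESeq2 size factors, no filter, the set as a block, DESeq2 1.42.0, the compared groups alone, limma 3.58.1 on the deposited signal (log2, pseudocount 1) and leaving out each library. The script was tested on simulated data. Counting intervals are exact at 95%, with a floor of 3 counts. Positions are from GENCODE v29 on GRCh38, and promoters from RefSeq. Figures used Python 3.11.15 and matplotlib 3.10.9.

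The design text ties each set to 1 sort and 1 treatment. Same-set SH2 libraries deviated together in 4 of 4 pairs (correlations 0.18 to 0.65). SH2 libraries of different sets had correlations of -0.54 to 0.27, so the ranges overlap. The pairing by set therefore rests on the design text. The main fit has no term for the set, which enters as a block in an alternative. Genes named were members past the threshold in any of 5 comparisons, the 3 with the smallest p in each, ABCB1, ABCC1, ABCG2 and the 5 with the highest mean CPM, and up to 4 called genes per list. Some items that this rule names are not reported here, although counts over members and lists include them. Members and lists were chosen with earlier results of these data known.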

Additional observations from a re-analysis of the deposited data

How the results depend on the processing

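Of the alternatives to the fold changes of named ABC genes, 251 kept direction and side of the threshold, 11 lost the call, 6 gained it and 11 turned direction. The 251 include the refit of the recovered reads, which equal the counts, so its agreement was fixed in advance. All 11 turns were of ABCG2. Its log2 fold change in treated against untreated SH2 cells was 0.37 with the set as a replicate block, 0.10 by limma, and -0.51 to 1.10 leaving out 1 library (1.10 without untreated set 1, 0.13 without treated set 3, 0.36 without treated set 4). Its doxycycline difference ran from -1.43 to 0.43 (0.43 without untreated SH2 set 1). Against cells labelled control it was -0.18 to 1.66 untreated (-0.18 without SH2 set 1) and, treated, -0.064 with the block, -0.21 by limma and -0.24 to 0.62 leaving out 1 library (-0.24 without SH2 set 2, -0.04 without control set 2). The cause was not tested.

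Calls over all genes in treated against untreated SH2 cells were 47 with no filter, 6 with the block, 16 by DESeq2, 0 with the compared groups alone and 0 to 3 leaving out 1 library. In cells labelled control, no filter gave 3. The difference gave 3 with no filter, 1 with the block and 2 by DESeq2. Untreated SH2 against control gave 1449 with no filter, 1505 with the block and 343 to 853 leaving out 1 library (343 without control set 2, 490 without control set 4). Treated, it gave 2171 with the block, 789 with the compared groups alone and 645 to 1462 leaving out 1 library (737 without control set 2, 645 without control set 4). Members called untreated were 2 by DESeq2 and by limma (ABCB4 and ABCE1) and 0 to 1 leaving out 1 library. Treated, they were 2 with no filter (ABCA3 and ABCC5), 2 by DESeq2 (ABCB4 and ABCC5), 0 with the compared groups alone and 0 to 2 leaving out 1 library. The block changed no call of a member. Leaving out 1 control library leaves 1, assumed to vary like the other groups. It also loosens the filter on low counts, which is set by the smallest group. The filter kept 21 rows out of the test, and without it ABCA3 was the one of them called, in treated cells.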
